A study of Mus musculus with 16 samples.

Results

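The deep layer fate factors described here are 7 genes, Fezf2, Bcl11b, Tbr1, Bcl11a, Zfpm2, Ldb2 and Crym, chosen by name and found as 7 of the 14498 genes of the count matrix. Each was detected, with 778 to 19451 unique molecular identifiers (UMIs, each standing for 1 captured RNA molecule). The cells came from the forebrain of embryos of the outbred CD1 mouse strain, wild type in genotype, at embryonic day 15.5, and were prepared with the droplet workflow of Illumina and Bio-Rad called SureCell. The 16 samples share strain, genotype and tissue, carry no treatment, and were deposited as 1 pooled matrix whose cell names give no sample, so there is 1 group with no replicates. Levels were therefore compared between classes of cells of 1 pool, without p-values, and every interval covers counting error only.

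Projection neurons of the cortex are born in sequence from radial glia, directly or through intermediate progenitors, and migrate outward so that early-born neurons form the deep layers and later-born neurons the upper layers. Deep layer neurons send axons out of the cortex: layer 5 to the brainstem and spinal cord, layer 6 to the thalamus, whereas many upper layer neurons project to the other hemisphere. The choice between these fates is known to run through transcription factors that repress one another. Fezf2 is a zinc finger repressor needed for layer 5 subcerebral neurons and acts upstream of Bcl11b (Ctip2), a zinc finger factor needed for corticospinal axons and also for striatal neurons. Tbr1 is a T-box factor of layer 6 that restrains Fezf2. Bcl11a (Ctip1) is the paralogue of Bcl11b, Zfpm2 (Fog2) is a cofactor of GATA factors known from corticothalamic neurons, Ldb2 is a cofactor that binds LIM domains, and Crym is a thyroid hormone-binding protein used, like Ldb2, as a marker of corticospinal neurons.

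Cells were grouped into 24 clusters drawn without the 7 genes, and the clusters were named from marker genes that hold none of them. The 5773 cells used had 1111 to 17398 UMIs, with a median of 3258. The excitatory lineage comprised 767 radial glia-like cells, 383 intermediate progenitor-like cells, 851 migrating excitatory neuron-like cells and 1783 excitatory neuron-like cells, of which 456 formed a deep layer neuron-like cluster and 296 an upper layer neuron-like cluster. Outside this grouping were 76 Cajal-Retzius-like cells, 440 ganglionic eminence progenitor-like cells, 777 interneuron-like cells and 246 striatal neuron-like cells. There were also 4 classes of under 50 cells and 2 unnamed clusters of 335 cells in all. The matrix holds 2 runs of cells that differ in Y-linked RNA and in a few late-listed genes, with 3647 and 2122 cells and median depths of 3162 and 3412 UMIs. The labels name neither run, so values by run stand beside results that moved between them, and the plots by class and by step show both. Class makeup differed between the runs: 244 of the 296 upper layer neuron-like cells, but 15 of the 246 striatal neuron-like cells, lay in the second.

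The genes lie on 7 chromosomes of mouse build mm10 (GENCODE M21). Fezf2 is at chr14:12342094-12348189 on the minus strand, Bcl11b at chr12:107910403-108003602 on the minus strand, Tbr1 at chr2:61802930-61814114 on the plus strand and Bcl11a at chr11:24078056-24174123 on the plus strand. Zfpm2 is at chr15:40655035-41104592 on the plus strand, Ldb2 at chr5:44472132-44799680 on the minus strand and Crym at chr7:120186380-120202111 on the minus strand. Annotated genes overlap Ldb2 (11), Zfpm2 (3) and, in antisense, Bcl11a (2). Strand use in the counting is not given in the sources used here, and none of these genes is a row of the matrix.

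The sequence before the start that RefSeq's promoter table (GRCm38.p6) gives is shown for the 4 factors found in that table, because the account below opens with these factors. The printed bases of Tbr1, Fezf2 and Bcl11a lie inside the gene as GENCODE M21 annotates it, downstream of its first base, and those of Bcl11b end at the gene's edge. Of the 250 bases before each start, the bases before the first annotated UTR are printed, 5′ to 3′ on the strand of the gene, with the homeodomain core TAATTA in capitals.
Tbr1, chr2:61804203-61804452, plus strand: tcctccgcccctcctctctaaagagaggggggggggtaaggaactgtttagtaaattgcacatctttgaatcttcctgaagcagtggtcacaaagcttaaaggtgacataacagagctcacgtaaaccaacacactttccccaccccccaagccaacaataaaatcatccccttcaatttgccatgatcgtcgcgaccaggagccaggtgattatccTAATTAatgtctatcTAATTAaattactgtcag
Fezf2, chr14:12345960-12346115, minus strand: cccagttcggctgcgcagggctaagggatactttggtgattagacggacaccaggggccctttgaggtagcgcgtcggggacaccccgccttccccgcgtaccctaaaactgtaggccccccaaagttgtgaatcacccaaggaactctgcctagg
Bcl11b, chr12:108003603-108003664, minus strand: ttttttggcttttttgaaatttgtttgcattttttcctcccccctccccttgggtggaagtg
Bcl11a, chr11:24080445-24080669, plus strand: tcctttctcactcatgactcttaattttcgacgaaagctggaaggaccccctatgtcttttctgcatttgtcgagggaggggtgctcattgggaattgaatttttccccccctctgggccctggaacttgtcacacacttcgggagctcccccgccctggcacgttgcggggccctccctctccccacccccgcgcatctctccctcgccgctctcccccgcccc
Over the 250 bases, the Tbr1 window held TAATTA 2 times and the other 3 windows did not hold it. TAATTA, which reads the same on both strands, occurred in 4.84% of 32851 promoter windows of that length. Neither the E-box CAGATG nor the T-box core GGTGTG, searched on both strands, was in any of the 4 windows, and they occurred in 14.4% and 16.3% of all windows. These are matches of letters, not binding sites.

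Across the classes of the excitatory lineage the 7 genes were higher from different steps on. All cells are of 1 embryonic day, so a step compares classes and follows no cell in time. Rose and fell are used in that sense. Whether a step reflects maturation or the birth date of the cells was not tested. Levels are UMIs of the gene per 1000000 UMIs of the class (CPM), and each gene is compared with itself. A ratio counted as higher or lower past 1.5-fold, and a gene counted as measured with at least 50 UMIs over both classes. In excitatory neuron-like cells 7 of 7 were at least 1.5-fold higher than in the radial glia-like class, against 24.4% of all 10684 genes measured, and none was lower, against 29.6%. The ratio of Crym was 30.04 (95% interval 15.2 to 69.9) and ran from 7.23 to 50.1 over the alternatives, with 7.23 where the members and layer lists were allowed as clustering features. That of Fezf2 was 2.72 (2.42 to 3.05), below the intervals of the other 6.

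**Figure D1:**
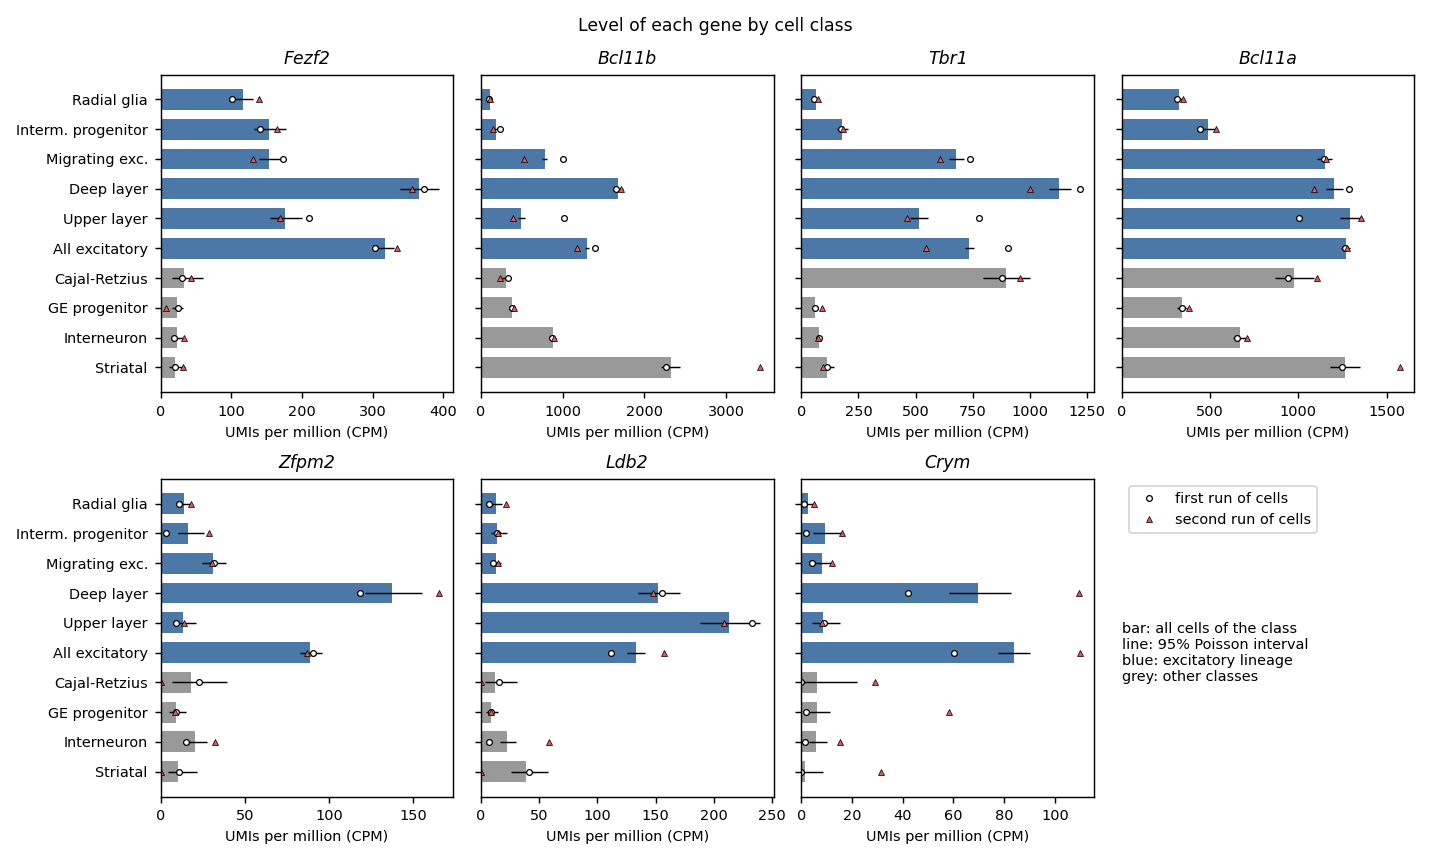
Level of each gene in CPM (horizontal axis, own scale per gene) by class. Bars are all cells of the class with exact Poisson 95% intervals, circles and triangles the 2 runs of cells. Bcl11b is highest in striatal neuron-like cells (2321 CPM) and Tbr1 in deep layer neuron-like cells (1130.5 CPM), while Ldb2 and Crym stay under 15 CPM up to the migrating class.

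Tbr1, Bcl11b and Bcl11a rose first. Tbr1 was at 64.1 CPM in radial glia-like cells, 179 in intermediate progenitor-like, 679 in migrating and 736 in excitatory neuron-like cells. Its ratio was 2.80 (2.29 to 3.42) at the first step, 3.79 (3.29 to 4.38) at the second and 1.08 (1.03 to 1.14) at the third. Bcl11b went from 108 to 187, 779 and 1293 CPM, with ratios of 1.73 (1.45 to 2.06), 4.17 (3.63 to 4.81) and 1.66 (1.58 to 1.74). The radial glia-like class held 1.70% of Bcl11b UMIs in 13.3% of all UMIs. Choroid plexus-like cells held 0.110% in 0.602%, on 20 UMIs, so the radial glia-like level was not above theirs. Meningeal fibroblast-like and microglia-like cells were lower, on 13 and 3 UMIs. The Bcl11b start level was thus not shown to lie above background. For Bcl11b the ratio was largest between intermediate progenitor-like and migrating cells, although in CPM the last step was nearly as large, and larger within the second run. For Tbr1 the intervals of the first and second ratios overlap. Bcl11a, already at 325 CPM in radial glia-like cells, stood at 489, 1149 and 1267 CPM in the later classes. Its ratios were 1.505 (1.35 to 1.67), 2.35 (2.15 to 2.57) and 1.10 (1.06 to 1.15).

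Fezf2, the earliest-acting factor of the layer 5 programme in textbook accounts, had a different course. It was at 117 CPM in radial glia-like cells, 154 in intermediate progenitor-like, 154 in migrating and 318 in excitatory neuron-like cells. The ratio was 1.31 (1.09 to 1.57), then 1.002 (0.84 to 1.20), then 2.07 (1.86 to 2.30). After each cell was thinned to 1000 UMIs, a Fezf2 UMI was found in 11.9% of radial glia-like cells (Clopper-Pearson 95% interval 9.66 to 14.4) and in 22.8% of excitatory neuron-like cells (20.8 to 24.8). Unthinned, these shares were 29.5% and 57.0%. In interneuron-like cells, which should lack it, the thinned share was 2.70% (1.68 to 4.102), at a median depth of 2287 UMIs against 3306 in radial glia-like and 4395 in excitatory neuron-like cells. Fezf2 RNA was thus above the interneuron-like level from the radial glia-like class on. The 25 choroid plexus-like cells held 8 Fezf2 UMIs, which were 0.208% of Fezf2 UMIs in 0.602% of all UMIs. The radial glia-like class held 8.74% in 13.3%, and the 17 microglia-like cells held 0. With 8 UMIs the choroid plexus-like level is loosely set, and a difference of radial glia-like cells from it was not tested.

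Ldb2 and Crym, the corticospinal markers, rose at the last step, as did the cofactor Zfpm2 with a smaller ratio. Zfpm2 was at 13.9, 16.6, 31.1 and 89.0 CPM in the 4 classes, and its ratio at the last step was 2.86 (2.28 to 3.64), which fell to 1.08 when each cluster was named by its best class. Ldb2 was at 13.2, 14.1 and 12.5 CPM up to the migrating class and at 132.9 CPM in excitatory neuron-like cells, a ratio of 10.6 (7.52 to 15.5). Crym followed the same course, at 2.79, 9.13, 7.96 and 83.7 CPM, with a ratio of 10.5 (6.82 to 17.1). This Crym ratio turned to 0.542 when each cluster was named by its best class. In radial glia-like cells 1.43% of thinned cells had an Ldb2 UMI, against 1.67% of interneuron-like cells, whose cluster led by Sst has 52.6 CPM of Ldb2, so that class is no background for this gene. For Crym the shares were 0.261% and 0.772%.

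Counted by step, 3 of 6 measured members (Tbr1, Bcl11b and Bcl11a) were at least 1.5-fold higher in the intermediate progenitor-like class than in the radial glia-like class, against 14% of all genes. Crym was not measured there, and Bcl11b passed in the first run (2.21) but was 1.29 in the second, and Bcl11a had run values of 1.42 and 1.55. At the next step 4 of 6 measured members were higher (12.5% of all genes). One of these, Zfpm2 at 1.87 (1.14 to 3.22), was 9.22 in the first run, on 2 UMIs in intermediate progenitor-like cells, and 1.05 in the second, and fell below 1.5 in 4 alternatives. At the last step 5 of 7 were higher (17.1% of all genes), of which Fezf2 was 1.45 with the members and layer lists as features. None was 1.5-fold lower at any of the 3 steps, against 21.1%, 14.5% and 12.8% of all genes. The last step does not hold for each excitatory neuron-like cluster. In the upper layer cluster Crym was at 8.47 CPM, Fezf2 at 176, Zfpm2 at 13.1, Bcl11b at 495 and Tbr1 at 515. Migrating cells had 7.96, 154, 31.1, 779 and 679 CPM of these. Ldb2 was higher in that cluster, at 212 against 12.5 CPM, and Bcl11a was at 1295 against 1149 CPM. The second step depends on where clusters are split: the migrating class joins the cluster led by Tac2 and Slc17a6, which scored 1.401 for migrating and 1.35 for intermediate progenitor markers. With another random seed of the clustering the Tbr1 ratio there was 1.26. The last Bcl11b ratio fell below 1.5 in 6 alternatives, to 1.09 at the lowest, and was 1.397 among cells of the first run and 2.25 among the others.

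**Figure D2:**
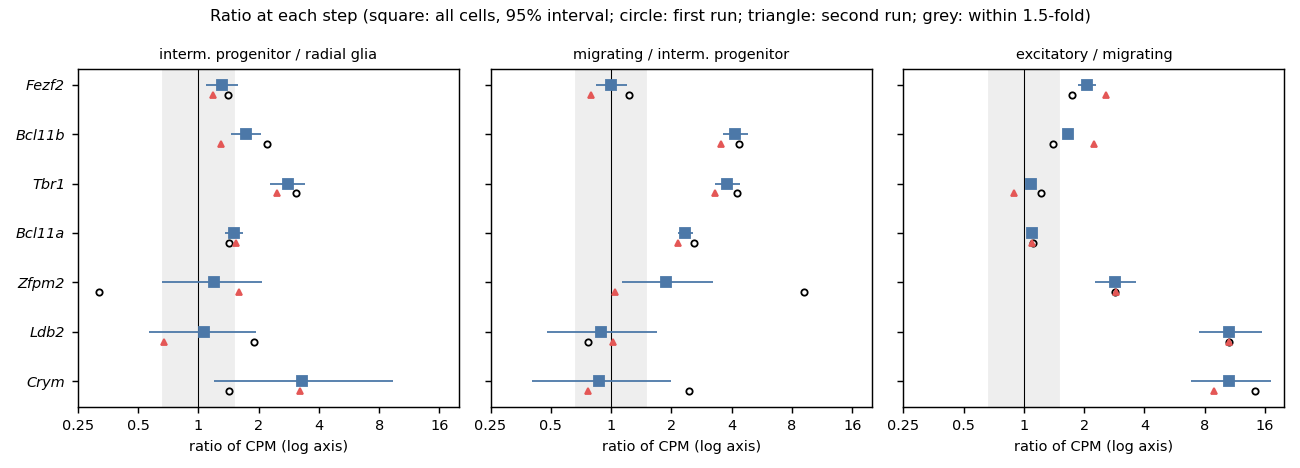
Ratio of CPM of each gene at the 3 steps of the lineage (log axis), for all cells with exact conditional binomial 95% intervals and for each run of cells. Tbr1 and Bcl11b are at 3.79 and 4.17 at the middle step, and Ldb2 and Crym at 10.6 and 10.5 at the last step. Circles far from the squares for Zfpm2 rest on few UMIs.

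Progenitors of the cortex and of the ganglionic eminences, the ventral source of interneurons and striatal neurons, differed in 2 members in opposite directions. Fezf2 was at 117 CPM in radial glia-like and 23.2 CPM in ganglionic eminence progenitor-like cells, a ratio of 5.04 (3.595 to 7.24), with run values of 4.11 and, with 30 ganglionic eminence progenitor-like cells, 16.8. Bcl11b was lower in radial glia-like cells, at 108 against 377 CPM, a ratio of 0.286 (0.249 to 0.329) that was 0.277 and 0.279 in the runs. Of 6 measured members 3 were higher (11.3% of all genes) and 1 lower (7.99%). The intervals of the other higher members, Zfpm2 at 1.52 (0.82 to 2.96) and Ldb2 at 1.55 (0.82 to 3.09), include 1. Tbr1 at 1.07 and Bcl11a at 0.95 lay within 1.5-fold. This comparison was added after the data had been read.

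Deep layer neuron-like cells were set against upper layer neuron-like cells to see which members carry layer. The deep layer cluster was led by Hs3st4, Mc4r and Nfe2l3 and raised 9 deep layer markers, and the upper layer cluster raised 4 upper layer markers. Of 7 members 5 were at least 1.5-fold higher in the deep layer cluster, against 14.5% of all genes, and none was 1.5-fold lower, against 8.14%. The label of deep layer factors thus held for 5 of them in this comparison, and not for Bcl11a and Ldb2. The excitatory neuron-like cluster led by Fosl2 and Hspa12a also raised 5 deep layer markers. It scored 0.419 for them, too low for a layer name, and was left out. The label was therefore read in the cluster led by Hs3st4 alone, not in all cells that raised deep layer markers. The left-out cluster had more Fezf2 (517 against 366 CPM) and Bcl11b (1885 against 1681 CPM) than the Hs3st4 cluster, and less Tbr1 and Zfpm2. The naming did not part the deep layers from one another, so the ratios below cannot be read for layer 5.

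Zfpm2 was at 137 CPM in deep and 13.1 CPM in upper layer neuron-like cells, a ratio of 10.5 (6.43 to 18.3). The 2 runs gave 12.96 and 11.9. Crym was at 69.5 and 8.47 CPM, a ratio of 8.21 (4.44 to 16.9) that was 4.61 and 13.1 in the runs. These intervals overlap, so Zfpm2 and Crym are not ordered. Bcl11b was at 1681 and 495 CPM, a ratio of 3.397 (3.12 to 3.70), which was 1.63 in the first run, with 52 upper layer neuron-like cells, and 4.41 in the second. Tbr1 was at 1130.5 and 515 CPM, a ratio of 2.19 (2.01 to 2.40), which was 1.56 and 2.17 in the runs. Fezf2 was at 366 and 176 CPM, a ratio of 2.07 (1.78 to 2.42), which was 1.46 after the cells with the highest doublet scores were removed.

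Bcl11a did not separate the layers, at 1204 CPM in deep and 1295 CPM in upper layer neuron-like cells, a ratio of 0.93 (0.87 to 0.99) that was 1.28 and 0.80 in the runs. Ldb2 was higher in the upper layer cluster, at 151.8 against 212 CPM, a ratio of 0.71 (0.60 to 0.85) that did not pass 1.5-fold. The Fosl2 cluster, outside this comparison, had 190.1 CPM of Ldb2. The ratio of the upper layer cluster to it was 1.12 (0.95 to 1.31), an interval that includes 1. A UMI of Ldb2 was found in 10.96% of deep (8.25 to 14.2) and 14.9% of upper layer neuron-like thinned cells (11.01 to 19.4), and these intervals overlap.

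The 5 excitatory neuron-like clusters resolved the members further. Besides the deep and upper layer clusters these were a cluster of 424 cells led by Fosl2 and Hspa12a, one of 334 cells led by Crym and, among others, Crabp1, and one of 273 cells led by Nts and Fam19a2. The members were not used to draw them, yet Ldb2 and Fezf2 were among the 10 leading genes of the Fosl2 cluster and Crym led its own. Fezf2 was highest in the Fosl2 cluster at 517 CPM, then the deep layer cluster at 366 and the Crym cluster at 265, and neighbours in this order differed beyond counting error, with ratios of 1.41 (1.28 to 1.56) and 1.38 (1.22 to 1.55). The Fosl2 cluster held 27.8% of all Fezf2 UMIs and 9.57% of all UMIs. Bcl11b had the same leaders, at 1885 CPM in the Fosl2 and 1681 CPM in the deep layer cluster.

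Tbr1 was ordered otherwise. It was highest in the deep layer cluster at 1130.5 CPM, followed by 812 CPM in the Nts cluster and 742 CPM in the Fosl2 cluster, and lowest in the Crym cluster at 421 CPM. In the Fosl2 cluster the runs differed, at 930 CPM in the first and 531 CPM in the second, and in the Crym cluster at 555 and 241 CPM. Zfpm2 was at 137 CPM in the deep layer cluster and 132 CPM in the Crym cluster, which did not differ beyond counting error (1.04, 0.87 to 1.25), and at 87.1 CPM in the Fosl2 cluster.

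The corticospinal markers Ldb2 and Crym were both found in the Fosl2 and deep layer clusters and parted in the upper layer and Crym clusters. Ldb2 was at 212 CPM in the upper layer, 190.1 in the Fosl2, 151.8 in the deep layer and 73.5 in the Nts cluster, and at 25.5 CPM in the Crym cluster. Crym was at 212 CPM in its own cluster, at 69.5 in the deep layer, 68.7 in the Fosl2 and 22.8 in the Nts cluster, and at 8.47 CPM in the upper layer cluster. The cluster with most Crym was thus the one with least Ldb2 of the 5. Its class is open to the naming rule: it scored 0.596 for migrating and 0.508 for excitatory neuron markers. Named as migrating, it turned the Crym ratio of excitatory over migrating neuron-like cells from 10.5 to 0.542. Crym also differed between runs within the deep layer cluster, at 42.1 CPM in the first and 109 CPM in the second.

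Bcl11a varied least over these clusters, from 836 CPM in the Nts cluster to 1476 CPM in the Crym cluster.

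**Figure D3:**
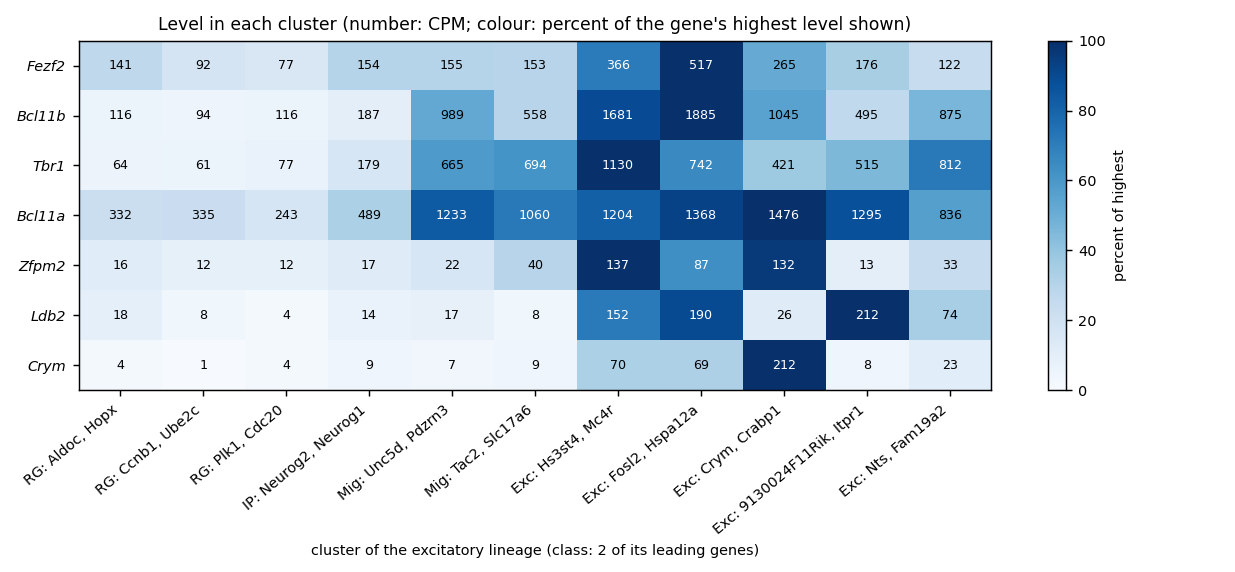
Level in each cluster of the excitatory lineage (columns, named by class and 2 of the leading genes: RG, radial glia; IP, intermediate progenitor; Mig, migrating; Exc, excitatory), with CPM as numbers and percent of the gene's highest level shown as colour. Fezf2 and Bcl11b share their darkest column (517 and 1885 CPM), while Ldb2 and Crym are at 25.5 and 212 CPM in the cluster led by Crym.

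Outside the classes grouped here as the excitatory lineage, Bcl11b and Bcl11a were well expressed and Tbr1 was high in 1 more class, the Cajal-Retzius-like cells. The grouping follows the projection neuron series and makes no statement on whether Cajal-Retzius-like cells are excitatory. Bcl11b was highest of all in striatal neuron-like cells, at 2321 CPM (2207 to 2439), against 1293 CPM in excitatory neuron-like cells, a ratio of 0.557 (0.528 to 0.588). A UMI was found in 83.7% of thinned striatal neuron-like cells (78.5 to 88.1) and in 62.9% of excitatory neuron-like cells (60.6 to 65.2). The lowest share was 1 of 17 microglia-like cells, at a median depth of 3955 UMIs, with an interval of 0.149% to 28.7%. Interneuron-like cells had 878 CPM of Bcl11b, so that the ratio to them, 1.47 (1.399 to 1.55), lay within 1.5-fold. By run it was 1.60 in the first, past the limit, and 1.32 in the second. The ratio to striatal neuron-like cells was 0.75 with 15 components. Bcl11a did not separate excitatory from striatal neuron-like cells, at 1267 and 1262 CPM, a ratio of 1.005 (0.94 to 1.08).

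Tbr1 was at 894 CPM (795 to 1003) in Cajal-Retzius-like cells, the early-born Reln-expressing neurons of the marginal zone, against 736 CPM in excitatory neuron-like cells. The order rests on the second run, which held only 18 Cajal-Retzius-like cells: in the first the values were 878 and 905 CPM, in the second 958 and 546. It was 112.5 CPM in striatal, 76.7 in interneuron-like and 59.95 in ganglionic eminence progenitor-like cells. Fezf2 was at 23.3 CPM or less in those 3 classes. Excitatory neuron markers summed to 298 to 1448 CPM in the clusters of those classes, with 0 or 1 of 7 at 0, against 4892 to 7504 CPM in the excitatory neuron-like clusters. Their part in the low Tbr1 and Fezf2 levels was not tested.

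In all, 6 of 7 members were at least 1.5-fold higher in excitatory neuron-like than in interneuron-like cells (15.2% of all genes) and none was 1.5-fold lower (11.7%), with Fezf2 at 13.6 (10.2 to 18.8) and Tbr1 at 9.60 (8.15 to 11.4). Against striatal neuron-like cells 5 were higher (18% of all genes) and Bcl11b was lower (11.2%). Of these 5, Crym and Zfpm2 had only 1 and 7 UMIs in striatal neuron-like cells. Among the 15 striatal neuron-like cells of the second run Zfpm2 and Ldb2 were at 0 CPM, so their ratios there are not resolved. Ldb2 in interneuron-like cells differed by run, at 6.69 CPM in the first and 58.3 in the second. The interneuron-like cluster led by Sst held 133 of its 204 cells in the second run, and there Ldb2 had 0 UMIs in the first run, which allows up to 18.5 CPM, and was at 81.4 CPM in the other.

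Co-detection was read in the 1783 excitatory neuron-like cells after thinning, as the share of cells with the less frequent gene among cells with and without the more frequent one. Of 21 pairs of members, 4 had intervals that did not overlap. The share of all gene pairs with such intervals was not computed, so counts of pairs have no background here. Fezf2 was found in 25.6% of cells with Bcl11b and 18.0% of cells without it, a ratio of 1.42. Ldb2 was found in 14.5% of cells with Fezf2 and 9.30% without, a ratio of 1.56. Tbr1 was found in 51.0% of cells with Bcl11b and 42.7% without, a ratio of 1.19. By run these 3 ratios were 1.53 and 1.37, 1.37 and 1.69, and 1.13 and 1.17, and the intervals were apart within a run for Fezf2 and Bcl11b in the first run alone. Crym went the other way, found in 4.33% of cells with Tbr1 and 7.86% of cells without it, a ratio of 0.551. This ratio was 0.295 and 0.997 in the 2 runs. Fezf2 and Tbr1, its known repressor in layer 6, had a ratio of 1.22 with intervals that overlap.

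Within single clusters the intervals are wider. For Fezf2 and Bcl11b they overlapped in all 5 excitatory neuron-like clusters. Fezf2 was found in 37.5% of the Fosl2 cluster's cells with Bcl11b and 37.3% without, in 28.2% and 21.9% of the deep layer cluster's, a ratio of 1.29, and in 18.1% and 11.9% of the upper layer cluster's, a ratio of 1.52. In the Crym and Nts clusters the ratios were 0.84 and 0.86. Within the Fosl2 cluster no pair of members had intervals apart. Within the deep layer cluster 1 of 21 pairs was apart: Zfpm2 was found in 13.96% of cells with Bcl11b and 3.81% without, a ratio of 3.66. Across the class 3 pairs had ratios of at least 1.5, a count that ranged from 0 to 11 over the alternatives and is not a stable measure. Cells with and without a member differed little in depth, with medians of 4378 to 4868 UMIs with and 4312 to 4448 without.

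**Figure D4:**
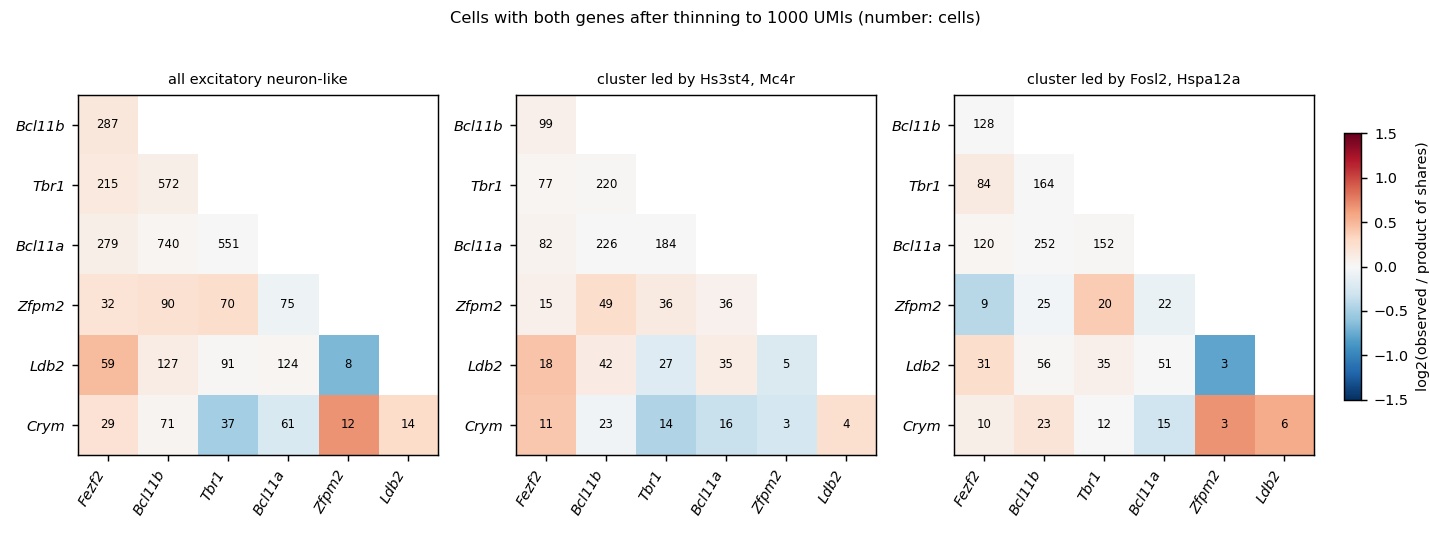
Number of thinned cells with both genes of a pair, coloured by log2 of that number over the number given by the product of the shares (limited to 1.5 either way, 0 cells drawn darkest blue). Fezf2 and Ldb2 share 59 of the excitatory neuron-like cells, and Fezf2 and Bcl11b are near white in the cluster led by Fosl2 (128 cells).

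At least 3 members were found together in 53.3% of deep layer neuron-like cells and 55.7% of the Fosl2 cluster, but in 0.521% of radial glia-like and 0.455% of ganglionic eminence progenitor-like cells. These shares depend on how often each gene was found by itself. No share given by unrelated detection was computed, so they are no measure of co-detection. After this thinning no cell of the 10 classes with at least 50 cells had all 7.

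**Figure D5:**
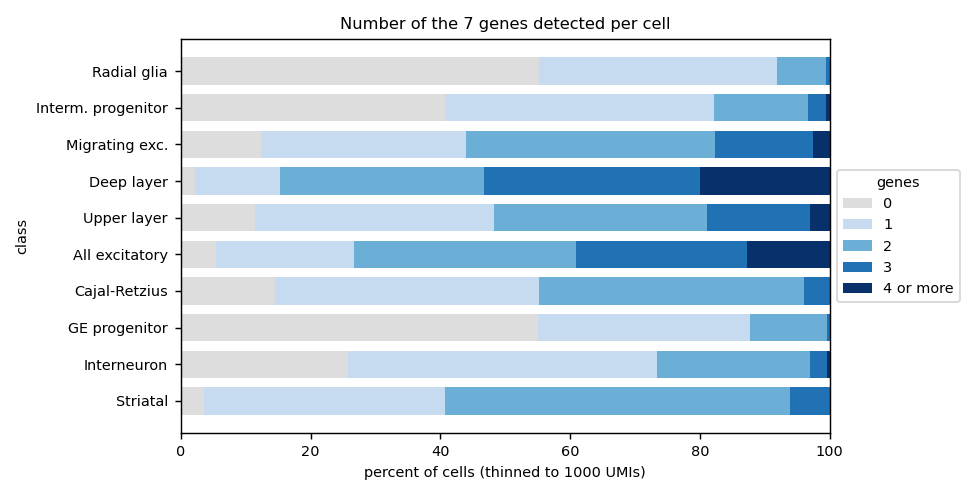
Percent of cells, each thinned to 1000 UMIs, by the number of the 7 genes with a UMI (stacked shares, 0 to at least 4) in 10 classes of at least 50 cells, where the deep and upper layer cells are also part of all excitatory neuron-like cells. Cells with none make up 55.3% of radial glia-like and 5.38% of excitatory neuron-like cells.

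Other factors of layer fate, from a list of 20 genes, were set beside the members. Against the radial glia-like class, 11 of 20 were higher in excitatory neuron-like cells (24.4% of all genes), among them Sox5 (6.58), which times the making of corticofugal neurons, and 6 were lower (29.6% of all genes, a like share), among them Emx2 (0.169) and Otx1 (0.197). The median log2 ratio of these 20 was 0.86, against 3.33 for the members and -0.12 for all genes. Between migrating and excitatory neuron-like cells Sox5 (2.53) and Ski (2.37) were higher, and Lhx2 (0.269) and Pou3f2 (0.304) lower. In the deep against the upper layer cluster 3 of 19 measured were higher and 4 lower, against 14.5% and 8.14% of all genes, so the higher count is near the share of all genes. Sox5 was 2.65-fold (2.44 to 2.89) and Nfia 2.10-fold higher, and Pou3f2 (0.140), a factor of upper layer neurons, was lower.

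Of 9 corticospinal neuron genes 8 were in the matrix and 5 were measured in most comparisons. Between migrating and excitatory neuron-like cells 2 of 5 were higher, against 17.1% of all genes. These were Cdh13 at 12.9 (8.68 to 20.02) and S100a10 at 10.5 (5.25 to 24.6), ratios of the size seen for Ldb2 and Crym. The median log2 ratio of the 5 was 0.02, near the -0.02 of all genes. Pcp4 fell over this step, from 613 to 105 CPM, a ratio of 0.172 (0.158 to 0.187). In the deep against the upper layer cluster Cdh13 (2.44) and Pcp4 (2.59) were higher and none of 5 was lower, against 14.5% and 8.14% of all genes. The median log2 ratio of the 5 there was -0.29, against 0.05 for all genes. The runs gave Pcp4 ratios of 0.97 and 3.91.

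The genes whose levels over the 24 clusters were most like each member were found by Pearson's r of log2(CPM + 10) among 11712 genes, as a description, since the clusters come from 1 pool and share a depth scale and class structure. Fezf2 was most like Nckap5 (0.92), Nfix (0.88) and Tnik (0.87), and Tbr1 most like Tnik (0.92), Syt3 (0.90) and Nfasc (0.89). Bcl11b was most like Cacnb3 (0.92), Usp22 (0.92) and Cd24a (0.91), and Bcl11a most like Chd3 (0.95), Kif3c (0.95) and R3hdm4 (0.94). The rarer members had weaker partners. Zfpm2 was nearest to Slc17a7 (0.85), the vesicular glutamate transporter, Ldb2 to Tshz3 (0.85), and Crym to Fosl2 (0.82). Among the members themselves r ran from 0.28 for Bcl11b and Crym to 0.83 for Bcl11a and Bcl11b and it was 0.34 for Fezf2 and Bcl11b.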

How the data were processed

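RNA of single mouse forebrain cells was measured in 16 samples with 1 set of labels. The sample titles cross a number with a code that is perhaps a sequencing lane, so the 16 samples may be fewer libraries. The authors deposited raw UMI counts per gene and cell as 1 matrix, and the submitters' processing notes name genome build mm10. What aligned and counted the reads is not given in the sources used here. Per the cell names, numbered in 1 series, no cell could be assigned to a sample, and shared barcodes could not be counted.

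The genes, lists, comparisons and naming rule were chosen with earlier results of these data known. Globin genes took over 10% of UMIs in 4 cells (at least 26.5%, with 0.191% the highest share elsewhere), which were left out, and doublets were kept. Each cell's counts were scaled to a sum of 10000 before the log1p step. Of genes in at least 10 cells, the 2000 most variable over 20 bins of mean expression, without the members, the 2 layer lists, Rpl and Rps genes and sex genes, gave 30 components. With 15 neighbours and Leiden resolution 1 (leidenalg 0.10.2, seed 1) they gave 24 clusters. Names rest on 145 of 154 markers in 21 lists. A class needed at least 3 markers raised 1.5-fold with 10 UMIs and a mean log2 marker fold (10 CPM added) of at least 1, or 0.5 for excitatory, layer and subplate lists. These limits were set after the data were read. The first run of cells ends at the last Y-linked UMI and the second starts at the first UMI of 11 genes listed out of order, with 4 cells between.

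UMIs were summed per class and divided by the class total (CPM). Ratios have exact conditional binomial 95% intervals, levels exact Poisson and shares Clopper-Pearson intervals. For shares and co-detection, 1000 UMIs were drawn at random from each cell, and no cell fell short. The scripts were tested on simulated data. No p-value was computed, since cells from a single pool do not replicate it. Named besides the members were the 3 most alike genes of each and, per list, comparison and direction, up to 2 genes with the largest ratio. Alternatives changed the cell filter, clustering, features, seeds, doublets, weights, limits and thinning. The changes of the cell filter removed no cell, since the lowest depth was 1111 UMIs. The 2 runs alone, naming by best class and leaving out the Crym cluster were added after the data were seen. Promoters were matched by symbol for 4 of 7 members. Results for some other genes are not reported here.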

Additional observations from a re-analysis of the deposited data

How the results depend on the processing

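Over 20 alternatives, 557 of 559 values of the 36 ratios past 1.5-fold kept their direction and 538 stayed past the limit. The settings with no cell filter and with a minimum of 1000 UMIs per cell kept the same cells as the main one. Those and a minimum of 10 UMIs per gene could not change a ratio, yet their values are counted among the 559. Of the 559 values 3 are bounds, because a class had 0 UMIs of the gene. The exceptions in direction were Zfpm2 in migrating over intermediate progenitor-like cells at 0.934 with 1000 features and Crym in excitatory over migrating neuron-like cells at 0.542 with naming by best class. The cause was not tested for the first. The count of members higher in intermediate progenitor-like over radial glia-like cells was 5 in place of 3 at resolution 0.5, with 15 components and with naming by best class, and 1 with a 2-fold limit. The next step gave 2 in place of 4 with 1000 features, and the last 3 in place of 5 with the members as features and with naming by best class. The count of pairs with a co-detection ratio of at least 1.5 was 3 and became 5 at resolution 2, with members as features, with Leiden seed 2 and in the first run. It became 6 with 1000 features, with 289 doublet-scored cells removed, with naming by best class and without the Crym cluster, 0 with a 2-fold limit, 1 with 500 UMIs and 11 with no thinning. The deep and upper layer clusters were not both named at resolution 0.5, with 15 components or with clusters drawn on 50% of UMIs, so that comparison has no value there. The class with the highest Bcl11a level changed with the setting, between excitatory, migrating and striatal neuron-like cells. No paired analysis was possible because all samples form 1 group and the cells carry no sample. At these depths the rarer members, Zfpm2, Ldb2 and Crym, had 978, 1318 and 778 UMIs in all, so their levels in classes of under 100 cells are not resolved.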

Other observations

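The 29 meningeal fibroblast-like cells, outside the comparisons above, had 18 Crym UMIs, all in 3 cells, and 10 Ldb2 UMIs in 7 cells, too few for a level. The unnamed cluster of 221 dividing cells, with a median of 5340 UMIs and markers of intermediate progenitors raised, had 147 CPM of Fezf2, 341 CPM of Tbr1 and 511 CPM of Bcl11b. The unnamed cluster of 114 cells led by Lhx8, all in the first run, had 1038 CPM of Bcl11b and 1312 CPM of Bcl11a with 40.4 CPM of Fezf2.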
